A study of Mus musculus with 6 samples.

Results

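The mammalian circadian clock was examined through 10 of its genes in the colon of mice with and without Islr: Per1, Per2, Per3, Cry1, Cry2, Arntl (also named Bmal1), Clock, Nr1d1, Nr1d2 and Dbp. All probes whose RefSeq accession belongs to these genes were taken, which gave 19 of the 56605 probes on the array and 10 of the 23462 genes that could be named. The genes were taken by name, with earlier results of these data known. The question was whether the control and knockout groups differ in clock gene expression in the way that groups collected at different times of day would. The labels used here give no time of collection, feeding or lighting schedule.

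The samples were colons of 6 male mice, 3 labelled control and 3 labelled Islr knockout, with 1 single-colour Agilent array each. Islr encodes a secreted protein with leucine-rich repeats and an immunoglobulin domain, made mostly by stromal cells. All 6 animals, controls included, had drunk water with 3.5% dextran sulfate sodium (DSS), which injures the colonic epithelium, for 5 days, with 1 day of recovery, according to the sample source; the treatment field of the same labels says that there was no treatment. Strain, age, the allele or promoter behind the knockout, and whether the loss was in the whole body were not given in the sources used here. The series' design text speaks of flow separation but names no sorted cells. Markers of epithelium, smooth muscle, fibroblasts, endothelium, neutrophils and B cells were all present, and 11 of 11 colon epithelium markers exceeded background on every array. In such bulk tissue, fewer cells of a type and less RNA per cell cannot be told apart. Nothing says that litters, cages or days were shared or separate, so p-values measure the spread between these animals.

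The clock is a feedback loop of transcription factors that runs in nearly every cell. ARNTL and CLOCK bind E-box sequences and switch on the Per, Cry, Nr1d1, Nr1d2 and Dbp genes. The PER and CRY proteins then inhibit ARNTL and CLOCK, and the NR1D proteins repress Arntl through sites called ROREs. DBP is an output factor that binds D-box sequences. As a result Dbp, Nr1d1 and the Per genes reach their highest transcript levels by day or early evening in tissues of night-active mice, and Arntl reaches its highest level at nearly the opposite time. In the gut the clock is set by feeding as well as by light, and it times epithelial renewal, transport and immune activity.

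The DNA before the start of these genes shows which of those elements lie close by. RefSeq promoter sequences (GRCm38.p6) were found for 9 of the 10 genes, and the 250 bases before the start site were searched on both strands for the E-box CACGTG, the related E-box form CACGTT, the D-box forms TTATGTAA and TTACGTAA, and the RORE core TAGGTCA. Among the clock genes, Per1 (at the entry printed below, not at its other) and Cry1 held CACGTG. Cry1, Cry2 and Nr1d1 held CACGTT, and Per3 held TTATGTAA at 2 places, 205 and 158 bases before its start. Of all 32851 mouse promoters searched in the same way, 6.02% held CACGTG, 3.85% CACGTT, 0.819% TTATGTAA, 0.113% TTACGTAA and 2.23% TAGGTCA. None of these letters was found in the 250 bases before Dbp, Arntl, Clock or Nr1d2, which says only that they are not in this window. Per1, Cry1 and Per3 are printed below because they carry the input and output elements of the loop, together with Ciart, a clock repressor outside the 10 genes whose window held CACGTG at 3 places (116, 58 and 44 bases before the start). Capitals mark the motifs, with AACGTG being CACGTT on the other strand, and each sequence runs 5′ to 3′ towards the gene.
Per1, chr11:69098699-69098948, plus strand: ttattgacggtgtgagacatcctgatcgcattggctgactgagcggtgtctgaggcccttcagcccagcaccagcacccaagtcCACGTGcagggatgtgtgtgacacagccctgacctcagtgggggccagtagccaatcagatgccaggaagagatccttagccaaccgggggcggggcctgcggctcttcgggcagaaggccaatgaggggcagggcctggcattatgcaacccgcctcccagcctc
Cry1, chr10:85185055-85185304, minus strand: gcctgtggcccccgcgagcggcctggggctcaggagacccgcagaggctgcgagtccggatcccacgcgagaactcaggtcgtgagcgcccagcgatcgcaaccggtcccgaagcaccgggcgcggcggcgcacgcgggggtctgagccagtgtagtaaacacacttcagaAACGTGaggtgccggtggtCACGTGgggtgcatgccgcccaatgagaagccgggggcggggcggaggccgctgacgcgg
Per3, chr4:151044666-151044915, minus strand: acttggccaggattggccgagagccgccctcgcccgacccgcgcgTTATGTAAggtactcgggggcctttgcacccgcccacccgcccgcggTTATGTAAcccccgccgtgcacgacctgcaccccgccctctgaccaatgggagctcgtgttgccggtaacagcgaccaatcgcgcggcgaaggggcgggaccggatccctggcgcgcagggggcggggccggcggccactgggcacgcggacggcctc
Ciart, chr3:95882229-95882478, minus strand: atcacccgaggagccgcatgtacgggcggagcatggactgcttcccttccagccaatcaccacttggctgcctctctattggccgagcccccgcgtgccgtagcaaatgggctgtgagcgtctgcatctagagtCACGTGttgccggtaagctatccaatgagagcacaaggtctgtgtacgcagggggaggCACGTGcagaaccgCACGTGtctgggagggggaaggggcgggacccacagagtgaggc

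Signals are given as log2 of the processed signal relative to the 75th percentile of the same array, so that 0 is that percentile. They can be compared between arrays for 1 probe but not between probes. Of the 19 clock probes 17 exceeded background on every array, and 15 could be tested, with at least 1 probe for each of the 10 genes. The other 4 were left out, 3 because the scanner software marked their spots as outliers on 4 or 5 arrays and 1 Clock probe (A_55_P2741789) because it was well above background on 2 arrays only. Such outlier marks covered 3.26% to 16.0% of the spots on an array and 10.7% to 56.8% of the brightest 10%. They were most frequent on control replicate 1 and knockout replicate 1. The share of spots well above background was 69.4% to 75.4%. The controls filled 1 row of the slide and the knockouts the other row, and these cannot be told apart. The Islr probe (A_51_P140742) was 5.42-fold lower in the knockouts (log2 difference -2.44, SE 0.21, adjusted p 0.0171 in limma, and 0.0580 without knockout replicate 3), the direction the labels call for, with control replicate 1 left out there for an outlier mark.

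None of the 10 clock genes passed the test. With false discovery held at 5%, limma called 0 of 10 genes at any of their 15 tested probes, and it called 3.97% of all tested probes (1403 of 35351), 1.55% as higher and 2.42% as lower in the knockouts. The lowest adjusted p of a clock probe was 0.0741. At an unadjusted p under 0.05 in limma there were 3 genes, Dbp, Per2 and Arntl, which is 30% of the 10, and 32.9% of all named genes tested, or 26.8% of all tested probes, reached that level. With the brightest tested probe standing for each gene, 6 genes had positive and 4 negative differences, with a median of 0.13. The median absolute difference was 0.28 for the 10 genes and 0.32 for all tested probes. On these counts the clock genes were close to the background of the array as a whole. Array weighting in limma called 3 of the genes (Dbp, Arntl and Per3) and 26.3% of all tested probes. A variance trend with robust fitting called Dbp and 5.53% of all probes, and leaving out control replicate 1 called Per3 and 5.83%. Both Per3 calls came from its dim probe, which was above background on 1 control array.

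**Figure D1:**
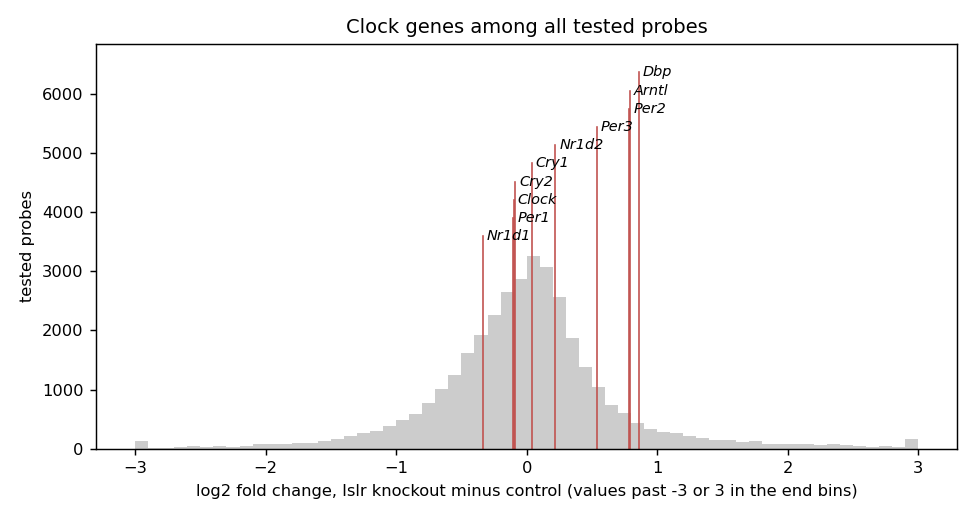
Histogram of the log2 fold change (Islr knockout minus control) of all 35351 tested probes, with red lines at the 10 clock genes (brightest tested probe each). Nr1d1 lies lowest at -0.34 and Dbp highest at 0.86, and the remaining genes spread over the body of the distribution.

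Dbp, the output factor that binds D-boxes, had the largest difference of the 10 genes at the brightest tested probe. At its brighter probe (A_55_P2032079) the controls measured 1.95, 1.33 and 1.59 and the knockouts 2.77, 2.32 and 2.35. At its other probe (A_51_P180492) the controls measured 1.39, 0.50 and 0.68 and the knockouts 2.55, 1.63 and 1.82. All knockouts lay above all controls at both probes, and in each group replicate 1 was the highest. The genotypes differed by 0.86 in log2 units (SE 0.22, 1.81-fold, adjusted p 0.0741 in limma) at the first probe and 1.15 (SE 0.33, 2.21-fold, adjusted p 0.0906) at the second. Neither passed the 5% threshold over all probes.

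**Figure D2:**
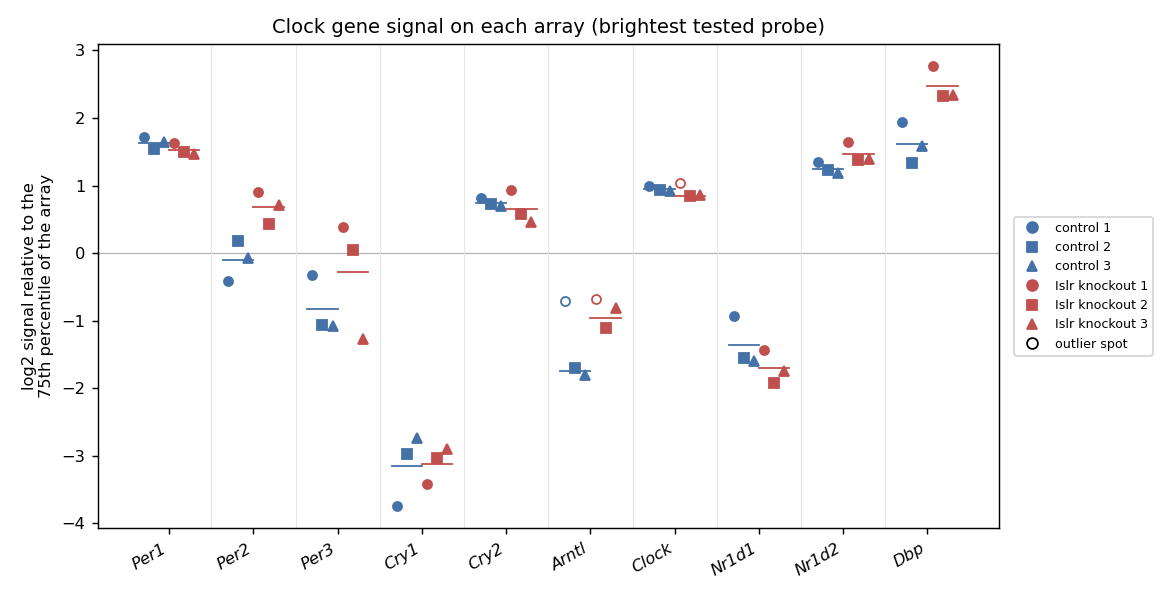
Log2 signal of the 10 clock genes on each array, relative to the array's 75th percentile, at the brightest tested probe of each gene; blue is control, red is knockout, marker shape is the replicate, open markers are outlier spots left out of the fit, and short lines are group means of the other spots. At Dbp, Per2 and Nr1d2 the groups are separate, whereas at the other genes they overlap once open markers are counted.

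Of the period genes, which encode inhibitors of ARNTL and CLOCK, Per2 stood nearest to Dbp. Its brighter probe (A_55_P2737144) read -0.41, 0.17 and -0.08 in controls and 0.91, 0.43 and 0.71 in knockouts. No overlap was seen, and control replicate 1 was the lowest of all arrays here while it was the highest control for Dbp. The difference was 0.79 (SE 0.21, 1.72-fold, adjusted p 0.0822 in limma). A second, dim Per2 probe (A_52_P536869) read -5.00, -4.49 and -4.36 in controls against -4.40, -4.37 and -4.18 in knockouts, groups that overlapped, with a difference of 0.30 (SE 0.21, adjusted p 0.397).

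Per1, a period gene that also responds quickly to hormones and feeding, was nearly level. It measured 1.71, 1.55 and 1.64 in controls and 1.62, 1.50 and 1.47 in knockouts, with overlapping groups. The difference was -0.10 (SE 0.14, adjusted p 0.678 in limma), with a 95% interval from -0.44 to 0.24, so a 2-fold change in either direction lay outside the interval. Its promoter entry printed above holds CACGTG, whereas its other entry (chr11:69099902-69100151) held none of the motifs searched.

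Per3, whose promoter held the D-boxes, varied widely within the knockouts. Its brighter probe (A_55_P2752088) read -0.32, -1.07 and -1.08 in controls and 0.38, 0.04 and -1.27 in knockouts. Knockout replicate 3 was the lowest of all 6 arrays, and the other knockouts were the highest. The difference was 0.54 (SE 0.46, adjusted p 0.487 in limma, 95% interval -0.55 to 1.63). A dimmer Per3 probe (A_66_P135046) exceeded background on 1 of the controls and 3 of the knockouts, reading -4.75, -6.28 and -6.99 in controls and -4.60, -4.86 and -4.99 in knockouts. Its measured difference was 1.19 (SE 0.54, adjusted p 0.211 in limma). The probe entered the test only through the knockouts. Control replicate 1 was the control above background: without it the controls gave only a bound, at least 2.03-fold higher in the knockouts. The limma fit without that array used the measured control signals, which were not above background, and does not test the bound. It gave a difference of 1.82 (adjusted p 0.0341, and 0.0245 to 0.437 over all alternatives).

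The cryptochromes inhibit ARNTL and CLOCK together with the PER proteins, and their tested probes differed little. Cry1 (A_55_P2880103) measured -3.74, -2.98 and -2.73 in controls and -3.41, -3.03 and -2.90 in knockouts, a difference of 0.04 (SE 0.30, adjusted p 0.950 in limma, 95% interval -0.67 to 0.74). Replicate 1 was the lowest in both groups, and the sign of the difference turned when control replicate 1 was left out (-0.26). A brighter Cry1 probe (A_52_P420500) had outlier marks on 5 arrays and was not tested; with all spots kept it differed by 0.55, and its groups overlapped. Cry2 (A_55_P2016540) measured 0.81, 0.73 and 0.70 in controls and 0.93, 0.58 and 0.47 in knockouts, a difference of -0.09 (SE 0.17, adjusted p 0.773, 95% interval -0.50 to 0.32). For both genes the groups overlapped.

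Arntl and Clock encode the activating pair of the loop. Arntl had 3 tested probes, each with a positive difference. The brightest (A_52_P267651) read -0.71, -1.69 and -1.81 in controls and -0.68, -1.10 and -0.82 in knockouts, where the spots of both replicates 1 carried an outlier mark. Without those spots the fit used 2 values per group and gave a difference of 0.79 (SE 0.22, adjusted p 0.107 in limma). With them the difference was 0.53 and the groups overlapped. Probe A_66_P127371 read -2.86, -3.62 and -3.54 against -2.95, -3.21 and -2.69, and probe A_55_P2735445 read -2.96, -3.96 and -3.66 against -3.34, -3.21 and -2.85. Both differed by 0.39 (SE 0.26 and 0.29, adjusted p 0.375 and 0.421). At all 3 probes control replicate 1 stood above the other controls, by 1.04, 0.72 and 0.85.

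Clock, the partner of Arntl, was nearly level. It read 1.00, 0.94 and 0.92 in controls and 1.03, 0.84 and 0.86 in knockouts (A_55_P2746404), with an outlier mark on knockout replicate 1. The difference was -0.10 (SE 0.16, adjusted p 0.730 in limma, 95% interval -0.50 to 0.30). A further Clock probe (A_52_P334670) carried outlier marks on 5 arrays and, with all spots kept, differed by 0.09. Clock transcripts vary little over the day in many mouse tissues, whereas those of Arntl vary widely.

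Nr1d1 and Nr1d2 encode the heme-sensing repressors REV-ERBα and REV-ERBβ, which act on Arntl. Nr1d1 (A_51_P223776) measured -0.93, -1.56 and -1.59 in controls and -1.43, -1.92 and -1.74 in knockouts. Both ranges overlapped, since knockout replicate 1 lay above 2 of the controls, and the difference was -0.34 (SE 0.24, adjusted p 0.405 in limma, 95% interval -0.91 to 0.23). Nr1d2 (A_55_P2911007) measured 1.34, 1.23 and 1.18 in controls and 1.64, 1.37 and 1.40 in knockouts. Its groups did not overlap, by a margin smaller than the spread within either group, and the difference was 0.22 (SE 0.15, adjusted p 0.396). A second Nr1d2 probe (A_52_P303891) had outlier marks on 4 arrays and was not tested; with all spots kept it differed by -0.04, with overlapping groups. At the tested probes the signs of the 2 paralogues were opposite, with neither past the threshold.

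**Figure D3:**
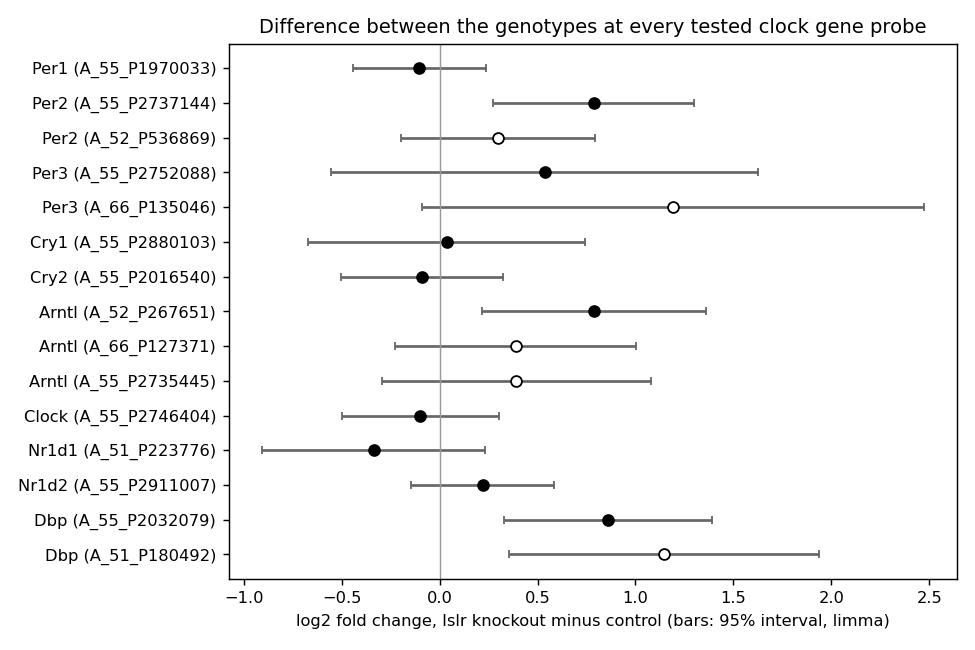
Log2 fold change (Islr knockout minus control) of the 15 tested clock gene probes, with 95% intervals from limma; filled circles mark the probe that stands for the gene and open circles its other probes. The intervals of both Dbp probes, the brighter Per2 probe and the brightest Arntl probe lie above 0 before adjustment, and the rest include 0.

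Across the 13 tested clock probes with usable spots on all 6 arrays, the groups did not overlap at 4 (30.8%), all higher in the knockouts: 2 of Dbp, 1 of Per2 and 1 of Nr1d2. Among all such probes on the array 34.5% showed no overlap, 16.5% with the knockouts higher and 18.0% with them lower. The clock genes did not move as a block. Dbp, Per2 and Arntl had differences of 0.79 to 0.86 at their brightest tested probes, and Per1, Cry1, Cry2 and Clock differed by at most 0.10 in size. That Arntl value came from 2 arrays a group, and its other tested probes both differed by 0.39. The dim Per2 probe differed by 0.30.

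The opposite timing of Arntl and of the genes it drives gives a contrast within each array that does not depend on how the array is scaled. Each gene was centred on its mean over the 6 arrays, using its brightest tested probe with usable spots on all of them, and Arntl was subtracted from the mean of Per1, Per2, Per3, Nr1d1, Nr1d2 and Dbp. The contrast was -0.27, 0.22 and 0.14 in controls and 0.25, 0.16 and -0.50 in knockouts (log2 units). Both groups had arrays on either side of 0, with control replicate 1 and knockout replicate 3 below it. The group means were 0.03 ± 0.26 and -0.03 ± 0.41 (SD, n = 3 each), a difference of -0.06, smaller than the SD of either group. The driven genes together differed by 0.33 and Arntl by 0.39, in the same direction. Over the alternatives this contrast ranged from -0.35 to 0.18. No test was made of this score, and whether the groups were collected at different times was not tested.

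**Figure D4:**
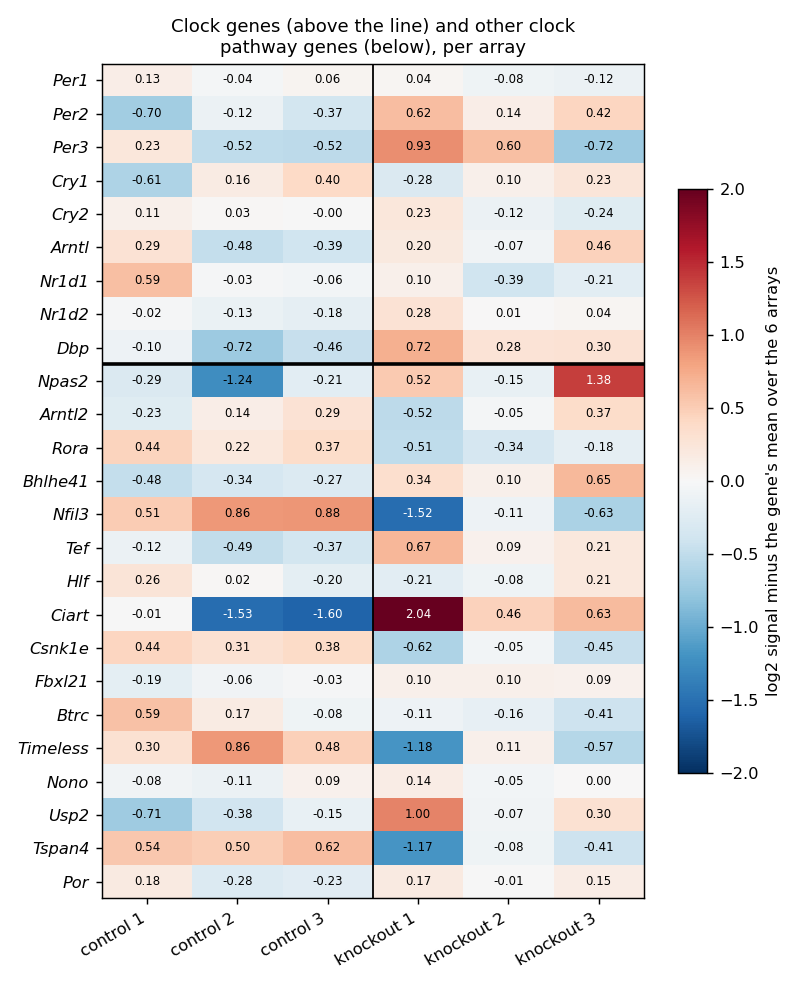
Log2 signal of each gene minus its mean over the 6 arrays, for the 9 clock genes with a tested probe usable on all arrays (above the line, Clock left out) and for further pathway genes (below); red is above and blue below the gene's mean, and colours end at -2 and 2. Dbp, Per2, Nr1d2, Tef, Ciart, Bhlhe41, Npas2, Usp2 and Fbxl21 are higher in every knockout than in any control. Nfil3, Rora, Csnk1e, Tspan4, Timeless and Btrc are lower in every knockout. Among all probes with usable spots on all 6 arrays, 34.5% show no overlap. Arntl and Nr1d1 are high in control replicate 1.

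Differences between animals of 1 group were as large as those between the groups for several members. Control replicate 1 exceeded the mean of the other controls by 0.64 at Nr1d1, 0.75 at Per3 and 0.49 at Dbp (brighter probes), while the same difference was -0.46 at Per2 and -0.89 at Cry1. Arntl and Nr1d1, which are usually high at opposite times, were thus both high on that array. Without control replicate 1 the Dbp difference was 1.02 (adjusted p 0.0519 in limma, with 0.0119 to 0.224 over all alternatives) and the Nr1d1 difference -0.12. Leaving out any other array gave Dbp differences of 0.71 to 0.94.

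Further genes of the same loop gave a few calls. Of 19 loop partners (cofactors, kinases, ubiquitin ligases and related transcription factors) 18 were on the array by name and 16 were tested. In limma 3 had a probe past 5% over all probes, among them Tef, higher, and Nfil3, lower in the knockouts, although the brightest tested probe of either did not pass. The median difference of the 16 was 0.06, with 9 higher and 7 lower in the knockouts at the brightest tested probe. At an unadjusted p under 0.05 in limma there were 9 of the 16, against 32.9% of all named genes tested. With all spots kept, the groups did not overlap at 12 of the 16 brightest tested probes. Among all probes with usable spots on all 6 arrays that share was 34.5%. Of all named genes tested, 5.0% had a called probe. The count of 3 was 4 without control replicate 1 (Ciart added), where 5.83% of all probes were called. It was 0 without control replicate 2, control replicate 3 or knockout replicate 3, where 0.219%, 0.275% and 0.126% were called, and 1 without knockout replicate 1 or 2, where 0.741% and 3.58% were.

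Nfil3 encodes a repressor that competes with DBP and TEF for D-boxes and is also induced by cytokines in immune cells. Its called probe (A_52_P500027) fell from 0.94, 1.28 and 1.36 in controls to -1.08, 0.07 and -0.31 in knockouts, with no overlap. The difference was -1.63 (SE 0.31, 3.10-fold lower, adjusted p 0.0446 in limma), and a second probe (A_55_P2035320) gave -1.50 (SE 0.36, adjusted p 0.0648). Of 8 tested neutrophil markers 6 were lower in the same animals, all 6 of them called, and 2 were higher by at most 0.18. Their median was -3.30. The summed linear signal of the neutrophil list (in units of each array's 75th percentile) was 31.7 to 35.1 in controls and 26.6 to 28.8 in knockouts. The part of immune cells in the Nfil3 value was not tested.

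Tef encodes a D-box activator of the same family as Dbp. Its called probe (A_52_P173309) was not well above background on any control array and was so on all knockout arrays, through which alone it entered the test. It was at least 2.49-fold higher in the knockouts, where each control array counts at its detection limit, or at the measured signal if that was above the limit. The adjusted p of 0.0426 in limma belongs to the measured signals (difference 1.43) and does not test this bound. The brightest tested Tef probe (A_52_P485573) measured 0.57, 0.19 and 0.32 in controls and 1.35, 0.78 and 0.89 in knockouts, with a difference of 0.65 (SE 0.21, adjusted p 0.110). Its groups did not overlap, and replicate 1 was again the highest in each. A still brighter Tef probe (A_55_P1979893) had outlier marks on 3 arrays and was not tested. With all spots kept it differed by 0.48, with no overlap. Hlf, the third member of that family, differed by -0.05 (SE 0.19, adjusted p 0.887).

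Rora encodes an activator of Arntl that binds ROREs. It measured 1.99, 1.76 and 1.92 in controls and 1.03, 1.20 and 1.37 in knockouts (A_55_P2908171), with every knockout below every control. The difference was -0.69 (SE 0.16, adjusted p 0.0625 in limma).

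Ciart, whose promoter with its E-boxes is printed above, had the largest difference of any tested loop partner's brightest probe. It measured -2.12, -3.65 and -3.72 in controls and -0.08, -1.65 and -1.49 in knockouts (A_66_P104483). Every knockout lay above every control, and replicate 1 was the highest in both groups, as for Dbp. The difference of 2.09 (SE 0.57, 4.25-fold) had an adjusted p of 0.0833 in limma, and of 0.0452 without control replicate 1 (0.0102 to 0.224 over all alternatives). Csnk1e, a kinase that marks PER proteins for degradation, differed by -0.75 to -1.01 over 3 probes with no overlap at any (adjusted p 0.0609 to 0.0707). Ciart, Rora and Csnk1e were picked out after their values had been seen.

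**Figure D5:**
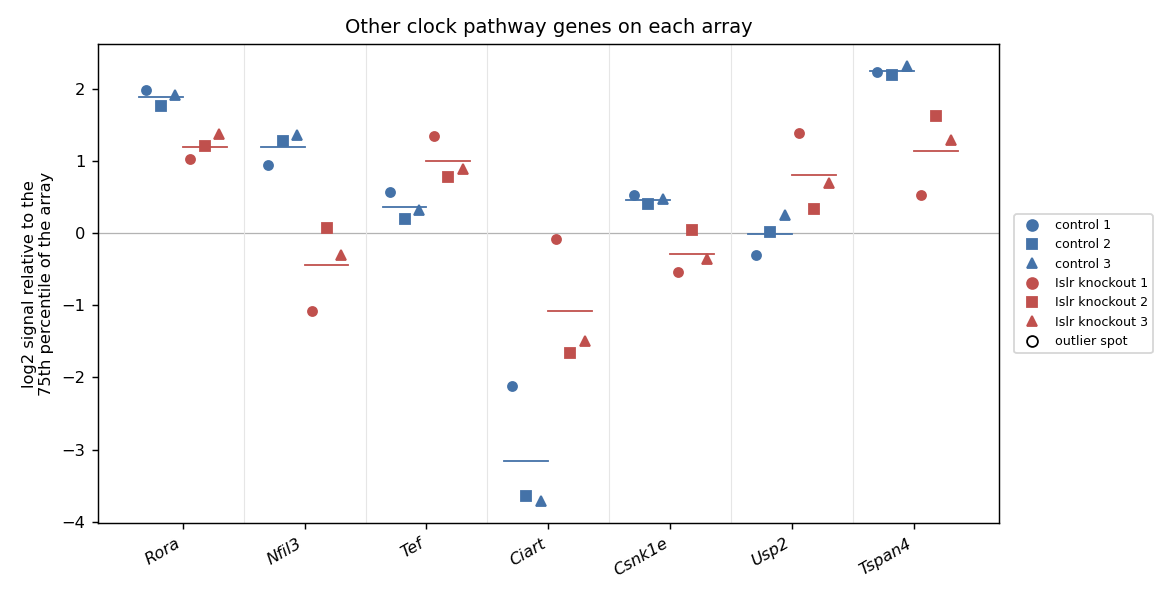
Log2 signal on each array of 7 further clock pathway genes, drawn as in the plot of the 10 clock genes, with the called probe shown for Nfil3 and the brightest tested probe for Rora, Tef, Ciart, Csnk1e, Usp2 and Tspan4. The 7 probes were picked for their differences, so that their separation is no count about the pathway (34.5% of all probes do not overlap); Tef, Ciart and Usp2 are higher and Rora, Nfil3, Csnk1e and Tspan4 lower in the knockouts.

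Transcripts known to cycle in most mouse organs gave a mixed picture. Of 6 such output genes 5 were tested and 0 were called in limma, with 2 at an unadjusted p under 0.05, against 5.0% and 32.9% of all named genes tested. Usp2, a ubiquitin protease, measured -0.31, 0.02 and 0.25 in controls and 1.39, 0.33 and 0.70 in knockouts (A_55_P2491668, difference 0.82, SE 0.30, adjusted p 0.145). Its other tested probe (A_51_P172663), without the outlier spot of knockout replicate 1, differed by 0.51 (SE 0.19, adjusted p 0.164 in limma). Tspan4 had the reverse sign, with 2.24, 2.19 and 2.32 against 0.52, 1.62 and 1.29 (-1.11, SE 0.28, adjusted p 0.0739). Nampt, the NAD salvage enzyme, differed by 0.35 (SE 0.20, adjusted p 0.333, n = 2 each).

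Glucocorticoids, which peak before the active phase and rise with stress, induce Per1 and several other genes. Of 8 such genes 6 were tested and 0 were called in limma, with 1 at an unadjusted p under 0.05 (again against 5.0% and 32.9%) and a median difference of 0.02. That gene was Dusp1, a phosphatase also induced by inflammation, at 2.23, 2.24 and 2.16 in controls and 0.56, 1.22 and 1.77 in knockouts (-1.03, SE 0.30, adjusted p 0.0927). Zbtb16 differed by 0.36 (SE 0.33, adjusted p 0.525 in limma) at its brighter probe and 0.006 (SE 0.16, adjusted p 0.986) at its other. Cebpd differed by -0.21 (SE 0.19, adjusted p 0.514). Fkbp5 and Sgk1 were not tested because of outlier marks, so the median leaves them out. With all spots kept Sgk1 differed by 0.61 with no overlap. Fkbp5 differed by 0.54 at its brighter probe and 0.16 at its other, with overlapping groups at both.

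Cell type markers moved with the genotype beside these values. The 10 tested colon epithelium markers were all higher in the knockouts, with a median of 1.42 and 0 called. Sums here take all listed markers, tested or not, with outlier spots kept. For the 11 epithelium markers the sum was 66.5, 17.8 and 44.4 in controls and 100.5, 76.3 and 75.7 in knockouts. Their order in that sum, with control replicate 2 lowest and replicate 1 highest in each group, was also the order of the controls at both Dbp probes. Among the knockouts replicate 1 was highest in both, but replicate 2 exceeded replicate 3 in the sum and lay below it at both Dbp probes. All 8 tested smooth muscle markers were higher too, with a median of 0.36. The 10 listed ones summed to 51.5 to 63.8 in controls and 70.0 to 81.3 in knockouts. Fibroblast (7 of 7 lower, median -0.63, Twist2 called), endothelial (5 of 5 lower, median -1.36) and B and plasma cell markers (4 of 4 lower, median -0.93) had the other sign. Of 7 tested skeletal muscle markers 5 were higher and 2 lower, with a median of 0.13 and Myh1 called. The 8 listed ones summed to 2.07, 2.71 and 2.65 in controls and 2.28, 2.76 and 4.40 in knockouts. Beside these marker calls, 5.0% of all named genes tested had a called probe. No marker on these lists was below background on all arrays. The part of these shifts in the clock gene values was not tested.

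The genes most like Dbp and Arntl over the 6 arrays were sought among 13679 and 13680 named genes with usable spots on all arrays, by Pearson's r of log2 signal, as a description with no p. Among the closest to Dbp (A_55_P2032079) were Drc3 (r = 0.999) and Rab2a (r = 0.998), and 718 genes had r over 0.95. Closest to Arntl (A_66_P127371) were H1f0 (r = 0.995), Cibar2 (r = 0.992) and Gfra3 (r = 0.989), and 29 genes had r over 0.95. The 6 points of each correlation share genotype and slide row.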

How the data were processed

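Total RNA of 6 colons was hybridised to Agilent design 074809 and read with Feature Extraction 11.5.1.1, per the file headers; the submitters' processing notes name version 10.7. The labels give dye Cy3 and a green column, but the files held only the red channel, which was used. The deposited processed signal is a background-corrected intensity, unscaled across arrays, per the file headers. The deposited value table held the same intensity (log2 correlation of at least 0.999999) and served as an alternative.

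Signals were taken to log2, minus the array's 75th percentile over 59305 non-control spots. Non-uniform and population outlier spots were set missing. Probes entered if well above background on all arrays of a group with 2 usable values per group (35351 of 56605). limma 3.58.1 in R 4.3.3 (lmFit, eBayes, genotype only, two-sided) was adjusted by Benjamini-Hochberg over all tested probes at 5%, after testing on simulated data. With 3 arrays a group, their number limits precision. RefSeq accessions gave names for 59.7% of probes through GRCm38.p6; the headers place probes on an earlier build, so no probe coordinates are given.

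The members and all lists were chosen with earlier results of these data known. Named were all members with every probe, called or lowest-p genes of 3 further lists, Islr, and the 3 genes most like Dbp or Arntl; marker lists are given as counts. Of the genes so named, 2 are not reported here. Replicate numbers follow accession order and pair nothing. The contrast with Arntl needed a probe usable on all 6 arrays, which its brightest probe was not.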

Additional observations from a re-analysis of the deposited data

How the results depend on the processing

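The alternatives were outlier spots kept, median scaling, normexp with quantile normalization (offset 50), no filter on dim probes, a filter for all 6 arrays, array weights, a variance trend with robust fitting, the deposited value table, all tested probes of a gene averaged, and each array left out; 1, the contrast with the brightest Arntl probe and outlier spots kept (-0.21), was chosen after seeing the data. Of 213 values of clock gene probes under them, 201 kept sign and side of the threshold, 7 passed it and 5 changed sign. The Cry1 difference was -0.033 with array weights and -0.26 to 0.25 with an array left out. The Cry2 difference was -0.22 to 0.0065 with an array left out. The number of clock genes called was 3 with array weights, 1 with the variance trend, and 0 to 1 with an array left out. The loop partners called were 5 with normexp or the variance trend, 1 with no filter, 9 with array weights and 0 to 4 with an array left out. The output genes called were 1 with median scaling and 2 with array weights, and the glucocorticoid-responsive ones 1 with array weights. Over all probes, calls were 1403 (3.97%) and ranged from 484 (0.935%) with no filter to 9292 (26.3%) with array weights. They covered 7.84% of all tested probes with normexp, 6.36% with median scaling and 5.53% with the variance trend. With an array left out they were 40 to 2114. The cause of these moves was not tested. The median over the clock genes stayed between 0.08 and 0.19. No paired analysis was possible because the labels give no replicate numbers. With 3 arrays a group, the smallest difference called at any probe was 0.69 in size, and outlier marks left the brightest Arntl probe with 2 values a group.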
